A study of Mus musculus with 12 samples.

Results

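The loci of 6 pluripotency genes, Pou5f1, Nanog, Sox2, Sall4, Lin28a and Utf1, were followed through the first days of reprogramming. For each gene, every accessible interval overlapping the gene body extended by 20 kb on each side was taken, with genes from GENCODE M21 on mouse genome build GRCm38. This gave 49 intervals of 273256 in all, where an interval is a stretch of the union of 4 peak lists, 1 list per group. The genes were picked by name, with earlier results of these data known. On the plus strand, Pou5f1 (ENSMUSG00000024406) lies at chr17:35506018-35510772 and had 11 intervals, Nanog (ENSMUSG00000012396) at chr6:122707489-122714633 had 7, Sox2 (ENSMUSG00000074637) at chr3:34650405-34652461 had 8 and Utf1 (ENSMUSG00000047751) at chr7:139943789-139945112 had 5. On the minus strand, Sall4 (ENSMUSG00000027547) at chr2:168748332-168767943 had 10 and Lin28a (ENSMUSG00000050966) at chr4:134003330-134018841 had 8.

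Accessibility was measured by Omni-ATAC-seq, which cuts open chromatin with Tn5 transposase, in 4 groups of 3 libraries. The MEF control and MEF KO groups were P2 fibroblasts of strain 129, taken from E12.5 embryos. They received a control sgRNA without a target or an sgRNA against Zfp266, a KRAB zinc finger gene, and were harvested as fibroblasts 96 h after transduction. The reprogramming control and KO groups received the same guides. For the last 72 h they were given vitamin C at 10 µg/ml and, at 300 ng/ml, doxycycline, which induced OCT4, SOX2, KLF4 and MYC (OSKM). All 4 groups came from Cas9 TNG MKOS cells, which carry Cas9 in Rosa26 under the EF1α promoter, a Nanog-GFP-ires-Puro reporter and an inducible MKOS-ires-mOrange cassette in the Sp3 locus, so both control groups carry them too, with the cassette uninduced in MEFs. These fibroblasts were taken from chimeric embryos made with a single targeted ES cell line. Reprogramming cells were grown among wild-type fibroblasts and sorted for mOrange, and MEFs were sorted too, with 50000 cells in each library. The KO is a transduced pool and not a clone, and the edit at Zfp266 was not checked here.

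OCT4 (encoded by Pou5f1), SOX2 and NANOG are the transcription factors at the centre of the pluripotency network. OCT4 and SOX2 bind many of their targets side by side at a composite OCT-SOX element, among them enhancers of their own genes. SALL4 is a zinc finger factor that acts with them, LIN28A is an RNA-binding protein that blocks maturation of let-7 microRNAs, and UTF1 is a chromatin-bound protein of undifferentiated cells. All 6 genes mark pluripotent cells and are low or silent in fibroblasts, and their regulatory regions open at different times on the way to induced pluripotent stem cells.

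The sequences on which the locus results turn are shown here, from GRCm38.p6, with matched words in capitals. The first set shows OCT-SOX composites (GCATNACAA) and KLF words (GGGTGTGG or GGGCGTGG) at Pou5f1 and Nanog. The Pou5f1 upstream stretch lies at chr17:35503960-35504081 on the plus strand, in an interval that had a peak only at 72 h, and its composite starts 1965 bases before the 5′ end. The Nanog intron stretch lies at chr6:122708534-122708622 on the minus strand, also in an interval with a peak only at 72 h. The Nanog promoter (chr6:122707239-122707538) and Pou5f1 promoter (chr17:35505782-35506081), both on the plus strand and as given by RefSeq, were each touched by 0 peaks in the 4 lists. RefSeq gives a further promoter for each of these genes, which is not printed here.
Pou5f1 upstream: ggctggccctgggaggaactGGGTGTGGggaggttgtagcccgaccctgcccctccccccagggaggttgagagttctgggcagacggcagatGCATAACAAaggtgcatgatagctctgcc
Nanog intron: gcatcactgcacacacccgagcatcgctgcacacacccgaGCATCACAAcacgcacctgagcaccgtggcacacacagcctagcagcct
Nanog promoter: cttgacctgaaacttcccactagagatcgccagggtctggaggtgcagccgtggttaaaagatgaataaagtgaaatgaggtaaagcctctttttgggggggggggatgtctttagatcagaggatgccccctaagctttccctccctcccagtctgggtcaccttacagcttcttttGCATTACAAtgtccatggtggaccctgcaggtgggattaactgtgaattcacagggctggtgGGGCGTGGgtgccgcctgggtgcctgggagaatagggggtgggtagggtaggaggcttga
Pou5f1 promoter: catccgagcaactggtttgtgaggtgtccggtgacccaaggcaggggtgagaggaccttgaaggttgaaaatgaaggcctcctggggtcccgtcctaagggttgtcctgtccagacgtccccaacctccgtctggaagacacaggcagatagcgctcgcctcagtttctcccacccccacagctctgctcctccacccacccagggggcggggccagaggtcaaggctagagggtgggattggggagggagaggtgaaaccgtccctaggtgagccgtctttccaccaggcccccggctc

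The second set comes from the 3 intervals that differed between KO and control at 72 h. The capitals in the Pou5f1 stretches, both printed on the minus strand, are words of the B1 SINE, a short interspersed repeat, and the Sall4 stretch from the middle of its interval, on the minus strand, matched 0 of the searched words. Their positions are chr17:35489291-35489433 (far upstream), chr17:35497457-35497586 (upstream) and chr2:168757888-168758008 (Sall4 intron).
Pou5f1 far upstream: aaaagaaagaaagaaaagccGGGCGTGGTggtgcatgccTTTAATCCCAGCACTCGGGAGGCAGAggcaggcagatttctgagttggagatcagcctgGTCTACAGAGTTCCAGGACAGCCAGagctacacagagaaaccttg
Pou5f1 upstream B1: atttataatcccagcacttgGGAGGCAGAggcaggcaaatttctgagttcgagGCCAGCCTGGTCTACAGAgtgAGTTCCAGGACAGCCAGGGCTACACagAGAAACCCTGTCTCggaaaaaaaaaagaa
Sall4 intron: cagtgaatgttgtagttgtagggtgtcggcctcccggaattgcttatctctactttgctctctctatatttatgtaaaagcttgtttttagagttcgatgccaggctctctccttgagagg

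Across the whole series, the lists held 161687 to 170135 peaks per group, with a median fold enrichment over background of 2.91 to 3.12. The 12 libraries differed in scale by DESeq2 size factors of 0.630 to 1.46. The 6 reprogramming libraries held 141616 to 324141 reads within the intervals listed for reprogramming, and the 6 MEF libraries 33936 to 86490 within those listed for MEFs, which is not their sequencing depth. Of 10 fibroblast marker genes, 10 had a promoter peak in both MEF groups and 9 in both reprogramming groups, where Lum had none. Promoter peaks were also called at 5 of 5 epithelial markers in every group, at 2, 2, 1 and 1 of 4 endothelial, 1, 0, 0 and 1 of 4 blood and 3, 3, 3 and 4 of 4 neural markers, in the order MEF control, MEF KO, reprogramming control and reprogramming KO. In bulk libraries a larger share of open cells and more open chromatin per cell cannot be told apart. Peaks were called once on the merged libraries of a group, so peak folds have no replicate error and were not tested.

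Around these genes, the share of sites that opened during reprogramming was near that over all intervals, and the share that closed was lower. In the control, 15 of the 49 intervals (30.6%) gained a peak by 72 h, against 33.9% of all intervals. A further 7 (14.3%) lost their peak, against 32.4% of all. With peaks required to cover at least 50% of an interval, 11 (22.4%) lost it, against 36.8% of all. Under the first rule, 23 (46.9%) had a peak at both times, against 27.3% of all. In the KO, 19 intervals (38.8%) gained a peak, against 32.1% of all, and 7 (14.3%) lost it, against 31.7%. With peaks required to have a −log10 q of at least 5, 13 intervals (26.5%) gained one in the control and 13 (26.5%) in the KO. The shares over all intervals were then 25.0% and 23.3%. The intervals at these genes were longer, with a median of 1013 bases against 732, and the part of length in these shares was not tested here. Every gene but Utf1 had at least 1 gained interval in the control, as did 86.6% of 21911 protein-coding genes in windows drawn the same way, and all 6 had a lost interval, as did 71.8%. In the windows of 26 other pluripotency genes, 95 of 285 intervals (33.3%) gained and 67 (23.5%) lost a peak in the control.

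**Figure D1:**
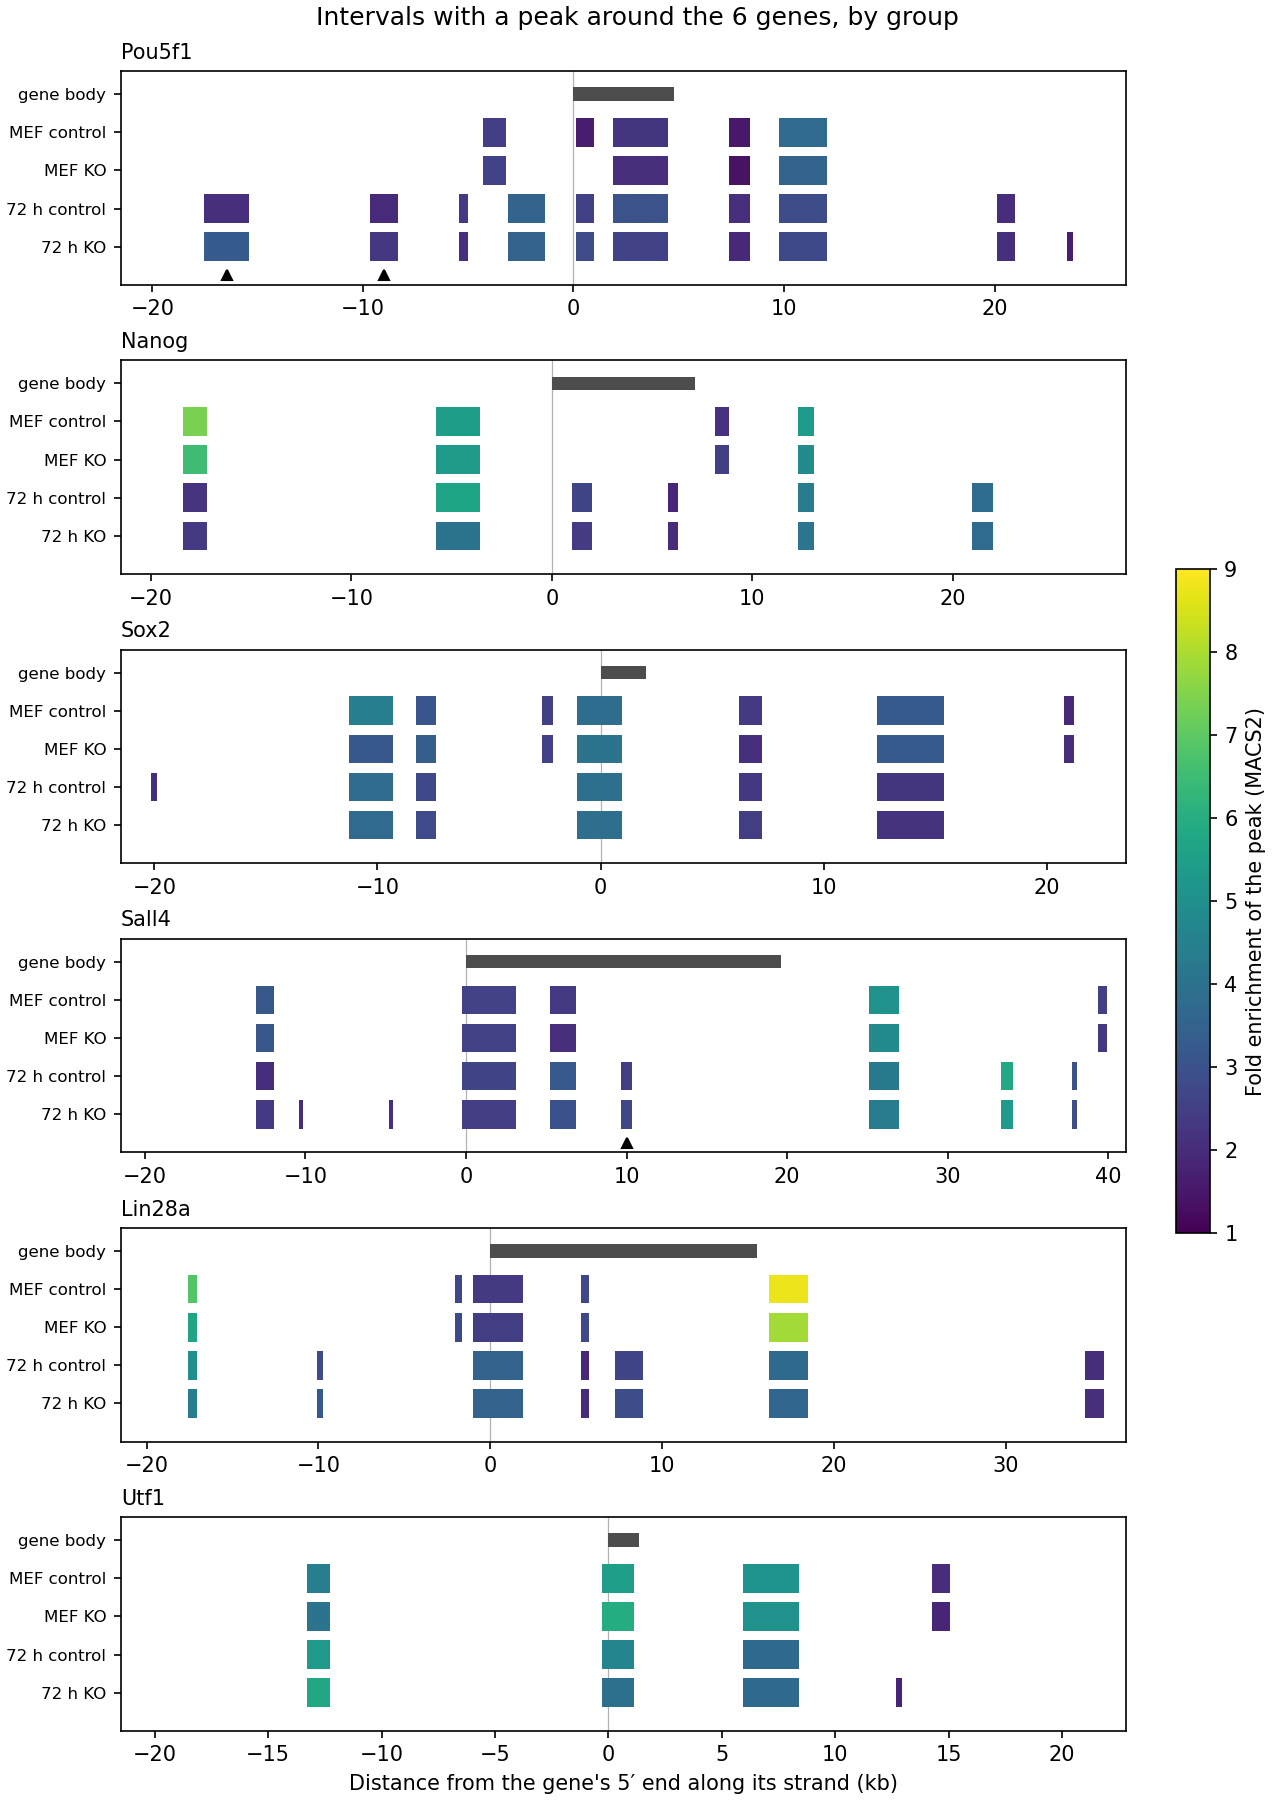
Intervals with a peak around the 6 genes, by distance from the gene's 5′ end in kb along its strand, with 1 row for each group and colour for the fold enrichment of the group's peak (intervals are drawn at their full merged width, and triangles mark the 3 intervals listed as different between KO and control at 72 h). The upstream side of Pou5f1 is almost empty in MEFs and holds 4 peaks in the 72 h control, while Utf1 has no gained interval in the control.

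At Pou5f1, 5 of 11 intervals (45.5%) gained a peak in the control, and at Nanog 3 of 7 (42.9%). Upstream of the gene, MEFs had a single interval, at chr17:35501724-35502803, with a peak fold of 2.45 in the control and 2.58 in the KO, and this peak was absent at 72 h. In its place, 4 upstream intervals had peaks only at 72 h. The strongest, at chr17:35502888-35504649 and centred 2250 bases upstream, reached a fold of 3.55 in the control and 3.47 in the KO and holds the OCT-SOX composite shown above. Its −log10 q at 72 h was 102 in the control and 94.7 in the KO. Among intervals within 10% of its length, 4.82% hold that composite. As background, the distal enhancer that drives Oct4 in naive pluripotent cells lies in this stretch upstream of the gene. The other 3, at distances of 5228, 9004 and 16479 bases, had folds of 2.36, 1.95 and 2.12 in the 72 h control and 2.11, 2.28 and 3.29 in the KO.

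Within the body of Pou5f1, the interval over the first exon, chr17:35506138-35506999, was weak in MEF control (fold 1.63, −log10 q of 1.24), had no peak in MEF KO, and reached 2.56 in the control and 2.84 in the KO at 72 h. The interval over the later exons, chr17:35507880-35510525, went from 2.23 and 2.09 in the MEF control and KO to 3.03 and 2.57 at 72 h. Coding bases made up 26.1% of the narrow blocks inside these broad peaks in MEF control and 54.7% in the 72 h control. At 72 h the blocks covered 83.2% of the 1122 coding bases in the control and 82.3% in the KO, against 42.6% and 43.7% in MEFs, and the block in the first exon, 294 bases long in the control, lay wholly in coding sequence. The Pou5f1 promoter printed above, which ends just before this coding exon, had no peak in any group. The further RefSeq promoter, chr17:35508557-35508856, lies inside the interval over the later exons, which had a peak in every group. Peaks covered 0.977 and 0.994 of that interval in MEF control and KO, and 0.535 and 0.530 at 72 h. Its block in the 72 h control began at chr17:35509111, past this promoter.

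The induced cassette carries the coding sequence of the same factor, and reads from it could align to these exons. Coverage of the other cassette genes was measured the same way. Blocks over Sox2 covered 96.2% of its 957 coding bases in MEF control and 97.3% in the 72 h control, where 1 block ran from 13 to 943 bases after the 5′ end and the coding exon from 11 to 967. At Myc, coding coverage was 50.8% in MEF control and 83.3% in the 72 h control, and at Klf4 it was 71.9% and 84.9%. The part of cassette reads in the exonic peaks of Pou5f1 and Sox2 was not tested. The 3 intervals over coding exons of these genes had peaks at both times in the control, so none of them is among the 15 gained there, and 1 of them is among the 19 gained in the KO.

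**Figure D2:**
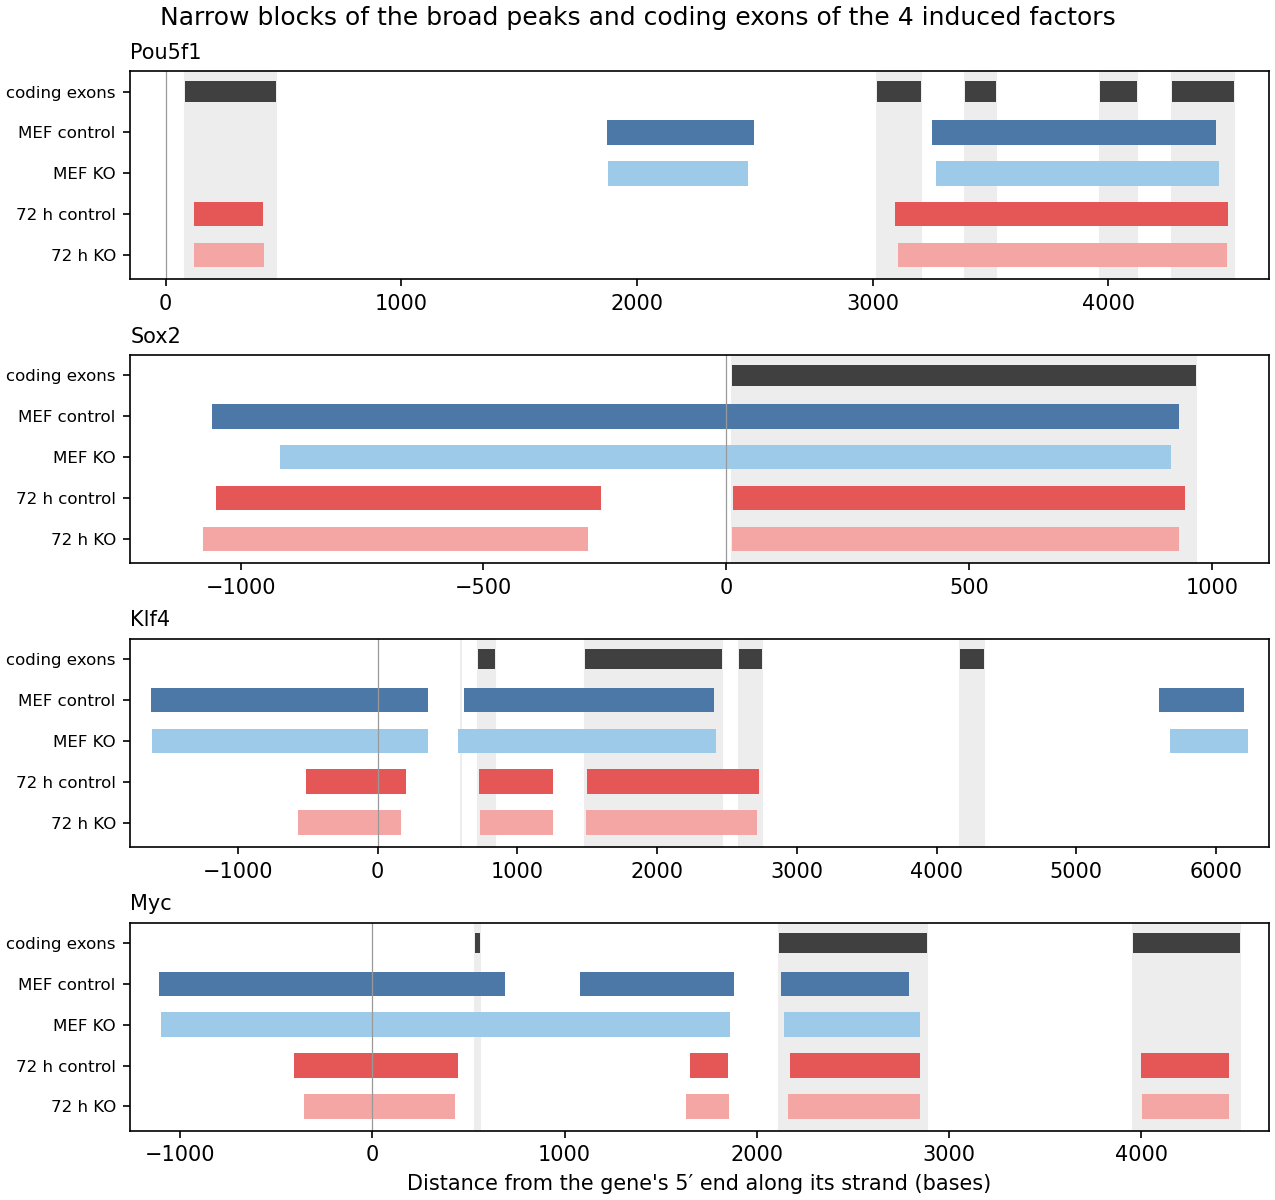
Narrow blocks of the broad peaks (coloured, 1 row per group) and coding exons (dark bars, grey bands) of the 4 factors in the induced cassette, by distance in bases from each gene's 5′ end. At 72 h the Pou5f1 block in the first coding exon lies 120 to 413 bases from the 5′ end inside the exon at 82 to 465, and the Sox2 block over the coding exon (11 to 967) runs from 13 to 943 bases in the control, apart from the promoter block.

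Downstream of Pou5f1, the interval over the promoters of Tcf19 and Cchcr1 was open throughout and weaker at 72 h, with folds of 3.72, 3.55, 2.85 and 2.78 in MEF control, MEF KO, reprogramming control and reprogramming KO. All later runs of 4 folds are in this order. A smaller interval inside Tcf19 went from 1.502 and 1.39 to 2.07 and 1.89, and holds another OCT-SOX composite. One interval in Cchcr1 gained a peak in both 72 h groups (2.03 and 2.12) and another in the KO alone (1.68, −log10 q of 1.13).

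Sox2, the partner of OCT4, had the fewest changes of state among the 3 core factors. Its promoter interval, chr3:34649327-34651348, had folds of 3.82, 4.04, 3.91 and 3.88. Of its 8 intervals, 5 (62.5%) had a peak in all 4 groups, against 22 (44.9%) of the 49 and 24.7% of all intervals. The interval 10289 bases upstream had folds of 4.38, 3.18, 3.80 and 3.73 and that at 7821 bases upstream 3.11, 3.36, 2.72 and 2.80. Downstream, the interval centred at 13878 bases was weaker at 72 h (3.25, 3.26, 2.23 and 2.17), while that at 6701 bases hardly moved (2.33, 2.12, 2.30 and 2.43). Intervals 2369 bases upstream (2.56 and 2.52 in MEFs) and 20983 bases downstream (1.93 and 2.05) lost their peak in control and KO. The single gained interval, 20028 bases upstream, was called in the 72 h control alone, at a fold of 2.10.

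Nanog, whose protein locks in the pluripotent state late in reprogramming, had no promoter peak in any group within 1000 bases of its 5′ end. The nearest interval with a peak in MEFs, chr6:122701726-122703914, was centred 4669 bases upstream, with folds of 5.42, 5.36, 5.67 and 4.05. Its KO to control ratio at 72 h, 0.713 by peak fold, was the lowest among the 37 intervals at these genes with a peak in both 72 h groups, and 5% of all such intervals lay below 0.816. The farther upstream interval, centred 17796 bases away, weakened most among the Nanog intervals with a peak at both times. Its folds went from 7.39 and 6.52 in MEFs to 2.19 and 2.35 at 72 h, and it holds 3 AP-1 words (TGANTCA).

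In the Nanog gene itself, 2 weak peaks appeared at 72 h. The interval in the first intron, chr6:122708493-122709476, begins 1004 bases after the 5′ end and had folds of 2.66 and 2.40 in the control and KO, and it holds the composite printed above and 1 B1 element. The interval over the last exon reached 1.85 and 1.97. Downstream, the interval at 8491 bases (2.14 and 2.49 in MEFs) lost its peak, that at 12673 bases was open throughout (5.37, 4.87, 4.29 and 4.11), and that at 21500 bases, in Slc2a3, gained one (3.84 and 3.76). The upstream Nanog interval and the downstream one at 12673 bases were the strongest of the Nanog intervals at 72 h, in the control and KO respectively.

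**Figure D3:**
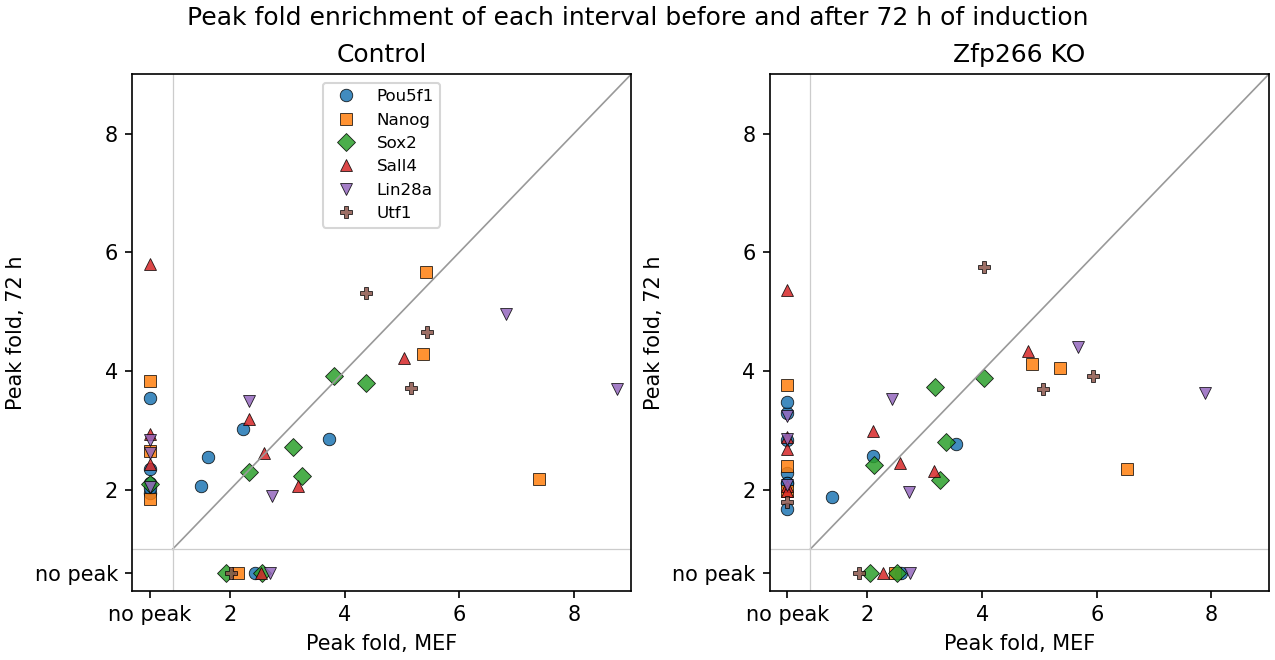
Peak fold enrichment of each interval in MEFs (x axis) and after 72 h of OSKM induction (y axis) for the control (left) and KO (right), with points on the "no peak" lines where the group's list has none. In the control, 9 of the 23 points with both peaks lie above the diagonal and 14 below, and the 15 gained intervals run from 1.85 to 5.81.

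Sall4 gained its strongest peak far outside its promoter. The interval chr2:168733881-168734633, centred 33686 bases downstream of the 5′ end and inside Atp9a, had no peak in MEFs and folds of 5.81 and 5.36 at 72 h, above 93.9% of all peaks in the 72 h control. A second gained interval in Atp9a reached 2.95 and 2.90. The Sall4 promoter interval, chr2:168764842-168768218, stayed weak in every group (2.59, 2.56, 2.62 and 2.45), while the exonic interval 6034 bases downstream rose from 2.33 and 2.09 to 3.19 and 2.98. The upstream interval at 12532 bases was weaker at 72 h (3.18, 3.16, 2.06 and 2.32). Peaks in KO alone were called 4666 and 10270 bases upstream, at folds of 2.06 and 1.97, and 2 further intervals lay in Atp9a, its promoter (5.05, 4.80, 4.22 and 4.33) and a lost site (2.54 and 2.28 in MEFs).

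The Lin28a promoter interval, chr4:134016936-134019859, strengthened in control and KO, with folds of 2.33, 2.43, 3.503 and 3.53. Its 3 gained intervals lay in an intron 8091 bases downstream (2.63 and 2.86), 9916 bases upstream (2.84 and 3.24) and over Dhdds (2.04 and 2.08). Among the Lin28a intervals outside any promoter, the upstream one at 17312 bases was the strongest in every group, at 6.81, 5.68, 4.96 and 4.41. The promoter of the neighbouring gene Dhdds fell from 8.75 and 7.89 to 3.70 and 3.63, the intronic interval at 5504 bases was weaker at 72 h (2.74, 2.73, 1.89 and 1.97), and an interval 1854 bases upstream (2.70 and 2.75 in MEFs) lost its peak.

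Utf1 had the highest promoter fold of the 6 genes in every group and was the one whose promoter fold was lower at 72 h than in MEFs in the control. Its promoter interval, chr7:139943505-139944898, had folds of 5.45, 5.93, 4.65 and 3.92. The interval 12780 bases upstream, inside Kndc1, went the other way, with 4.38, 4.04, 5.32 and 5.75, and the interval 7172 bases downstream had 5.16, 5.06, 3.71 and 3.71. A weak peak 12774 bases downstream was called in the 72 h KO alone (1.80), and one at 14660 bases (2.02 and 1.84 in MEFs) was lost.

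By promoter, defined as 1000 bases on each side of the 5′ end, 4 of the 6 genes had a higher peak fold at 72 h than in MEFs in the control, against 17.6% of all protein-coding genes, and 2 of 6 in the KO, against 16.7%. The 4 were Pou5f1, Sox2, Sall4 and Lin28a, but the Sox2 and Sall4 changes were small, and in the KO those promoters were lower at 72 h. The Pou5f1 value is that of the first exon interval, whose narrow block at 72 h is coding sequence that the cassette also carries. The Sox2 interval covers such sequence too. The gained Nanog intron interval lies just outside the promoter limit, beginning 1004 bases after the 5′ end. By percentile among all promoters with a peak, 5 of 6 genes were higher at 72 h in the control, against 38.8% of all genes, and 4 of 6 in the KO, against 37.9%, and Utf1 went from 64.3 to 69.0 in the control. The median promoter fold over all genes with a peak fell from 4.81 in MEF control to 3.88 in the 72 h control. The genes with the most similar promoter pattern, by Euclidean distance of log2(fold + 1) over the 4 groups, were Spata21, Fbp1 and Ydjc for Pou5f1 (0.0872 to 0.155), Vezf1, Ednrb and Fbxl7 for Sox2 (0.0193 to 0.0293), Zfp423, Hoxa5 and Clic1 for Sall4 (0.039 to 0.0422), Rdh5, Bloc1s1 and Klk8 for Lin28a (0.0652 to 0.0775), and Tmem246, Pik3cb and Ankfy1 for Utf1 (0.0578 to 0.0809).

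**Figure D4:**
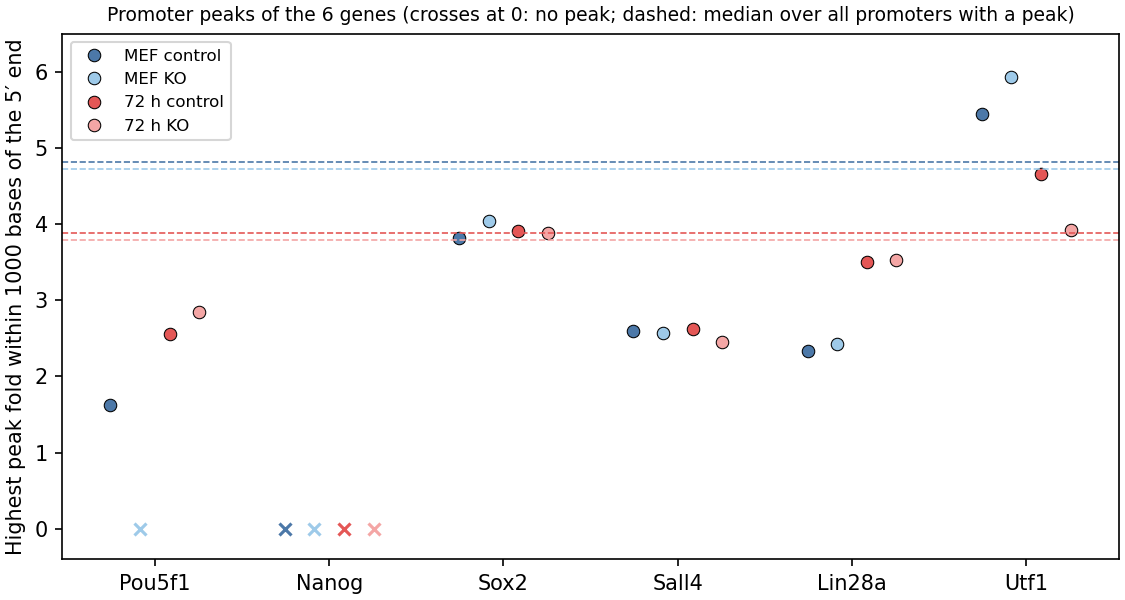
Highest peak fold within 1000 bases of the 5′ end of each gene in the 4 groups (points, crosses at 0 where no peak was called), with dashed lines for the median over all protein-coding promoters with a peak. Lin28a and Pou5f1, whose value comes from its first exon, rise at 72 h, and Utf1 falls from 5.45 to 4.65 in the control. Nanog has no promoter peak, and its gained intron interval begins 1004 bases after the 5′ end.

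Where both times had a peak in the control, the 72 h to MEF ratio of the fold ran from 0.297 to 1.58 over the 23 intervals, with a median of 0.867 against 0.858 over all intervals. A rise of at least 1.5 times was seen at 2 of them, the first exon of Pou5f1 (1.58) and the Lin28a promoter (1.501), against 9.66% of all. A fall of at least 1.5 times was seen at 3, the far upstream Nanog interval (0.297), the Dhdds promoter (0.423) and the upstream Sall4 interval (0.647), against 24.9% of all. The Lin28a promoter sat at the limit, and the next value outside the lower limit was 0.686, at the downstream Sox2 interval. In the KO the median over 22 intervals was 0.839, against 0.866 over all. There 0 rose and 4 fell by at least 1.5 times, against 7354 and 17403 of all 73261. The Lin28a promoter ratio in the KO was 1.451, and the first exon of Pou5f1 had no MEF peak to compare.

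The question for the KO was whether loss of Zfp266 changed accessibility at these genes. In the deposited tables, which list only intervals past the authors' threshold of an FDR of 0.05, 0 of the 49 intervals were listed for MEFs, where 0.175% of all intervals were listed as more open in KO. At 72 h, 3 of the 49 were listed, all more open in KO, against 0.557% of all. They belonged to 2 of the 6 genes, Pou5f1 and Sall4, and 8.47% of protein-coding genes had a listed interval in the same window at 72 h and 2.97% in MEFs. For the other 46 intervals no library counts were used here, and only their peak folds can be compared.

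The Pou5f1 interval centred 16479 bases upstream, chr17:35488471-35490608, had 93.9, 73.5 and 64.0 normalised counts in the 3 control libraries and 253, 193 and 227 in the 3 KO libraries. All 3 KO libraries lay above all 3 controls. The mean rose from 77.1 ± 15.3 to 224 ± 29.8 (SD, n = 3), which is 1.54 ± 0.12 (SE) on the log2 scale (edgeR quasi-likelihood test, adjusted p = 3.95e-26). The MEF libraries, whose mean follows from the deposited mean over all 12 libraries, averaged 25.7, or 0.333 of the 72 h control.

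The Pou5f1 interval 9004 bases upstream, chr17:35496336-35497693, had 89.4, 77.1 and 82.2 normalised counts in the control libraries and 139, 140 and 167 in KO. Again the groups did not overlap. The mean rose from 82.9 ± 6.16 to 149 ± 15.6 (SD, n = 3), which is 0.83 ± 0.14 (SE) on the log2 scale (edgeR adjusted p = 7.23e-07). The MEF libraries averaged 0.145 of the 72 h control.

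The Sall4 interval, chr2:168757582-168758316, lay in an intron 9994 bases downstream of the 5′ end and had 120, 122 and 137 normalised counts in the control libraries and 201, 194 and 186 in KO. The mean rose from 126 ± 9.38 to 194 ± 7.77 (SD, n = 3), which is 0.63 ± 0.11 (SE) on the log2 scale (edgeR adjusted p = 1.35e-05), and the groups did not overlap. The MEF libraries averaged 7.11, or 0.0563 of the 72 h control, the lowest of the 3 intervals. The 3 intervals thus had no peak in MEFs, a peak in both 72 h groups and more reads in the KO, and their changes ranked 324, 1016 and 1274 among the 1608 listed at 72 h, whose more open members had a median of 1.03.

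These intervals were listed because of the same contrast in the same libraries, so the tests give sizes and errors and are not independent evidence. The lack of overlap between KO and control libraries is likewise no independent evidence, and its share over all listed intervals was not counted. The labels do not say whether the libraries came from separate cultures or embryos, so the p-values measure the spread between these samples alone. With edgeR that spread was estimated partly from the other listed intervals, which were selected on the same contrast. Scaling by factors computed on the listed intervals alone, nearly all of which rose, turned the 2 smaller changes to −0.14 and −0.34 and left 0.57 for the larger.

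**Figure D5:**
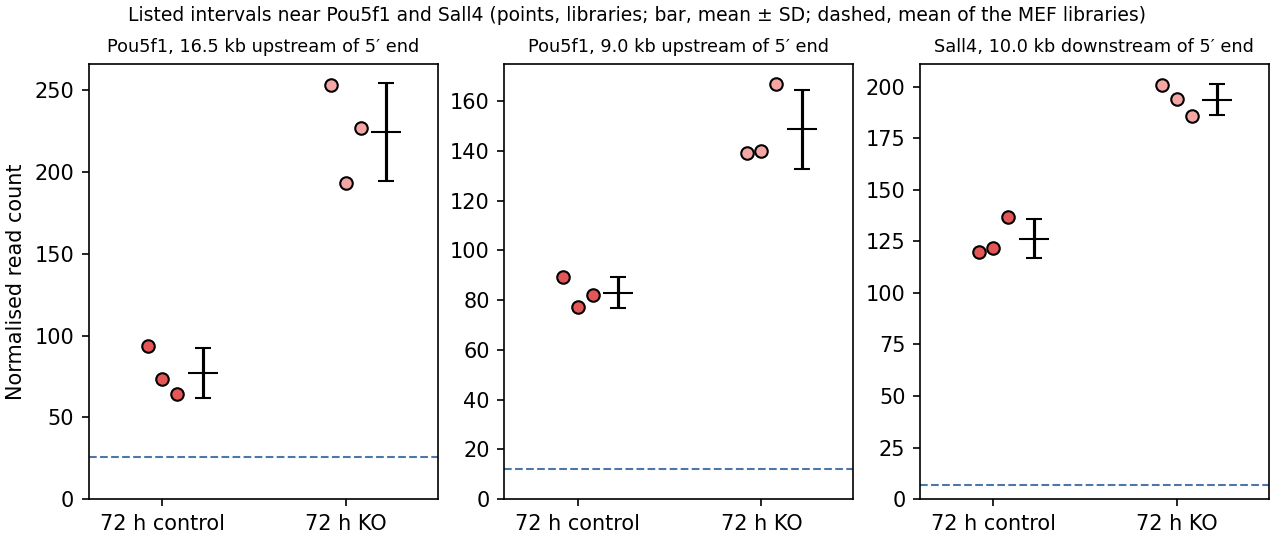
Normalised read counts in each library at the 3 intervals listed at 72 h (points), with the mean ± SD of 3 libraries (bars) and the mean of the MEF libraries (dashed line). Every KO library lies above every control library, from 193 against 93.9 at the Pou5f1 interval 16.5 kb upstream to 186 against 137 at Sall4. The intervals were listed for this same contrast.

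By peak fold, the far upstream Pou5f1 interval also had the highest KO to control ratio of the 37 intervals with peaks in both 72 h groups (1.55), the single one of them at or above 1.5, against 0.202% of all. The median ratio was 0.992, and 0.986 over all intervals. In MEFs, 29 intervals had ratios from 0.725 to 1.16 with a median of 0.982 against 0.979. Peaks in the KO alone numbered 4 of 49 at 72 h, against 4.96% of all intervals, and 0 in MEFs, against 3.65%. The 4 had a −log10 q of 1.13 to 2.48. Peaks in the control alone numbered 1 at 72 h, against 7.27%, and 1 in MEFs, against 4.79%.

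The words searched were ATTTGCAT (OCT), GCATNACAA (OCT-SOX), CATTGTT (SOX), GGGTGTGG or GGGCGTGG (KLF) and TGANTCA (AP-1), on both strands with no mismatch. A B1 element was called where at least 3 of 11 B1 words of 9 letters stood in their order within 200 bases on either strand. The B1 words were GGGCGTGGT, TTTAATCCC, CAGCACTCG, GGAGGCAGA, GCCAGCCTG, GTCTACAGA, AGTTCCAGG, GACAGCCAG, GGGCTACAC, AGAAACCCT and CCCTGTCTC, the first of which contains the KLF word GGGCGTGG. Elements of B1 stood in 9 of the 49 intervals (18.4%), against 5.81% of intervals of like length. Of the 15 gained intervals, 5 held one (33.3%, against 4.43% of like length), among them both Pou5f1 intervals that were more open in KO, with 2 B1 elements each. Repeat masking covered 47.6% of the far upstream Pou5f1 interval, 88.1% of the nearer one and 5.85% of the Sall4 interval, which held no B1 element, against a median of 14.1% over all intervals.

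OCT-SOX composites were matched in 3 of the 49 (6.12%, against 3.67%), OCT words in 1 (2.04%, against 6.63%), SOX words in 6 (12.2%, against 19.0%) and KLF words in 11 (22.4%, against 18.4%). AP-1 words, bound by factors of the fibroblast state, were matched in 11 (22.4%, against 45.1%). Of the 7 lost intervals 1 held an AP-1 word (14.3%, against 37.0% of like length). In RefSeq promoters of 300 bases, the composite stood in 0.731% of 32851 entries, and Nanog was the one matched gene of Pou5f1, Nanog, Sox2, Lin28a and Utf1 with it.

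The 26 other pluripotency genes, taken as a list by role, had promoter peaks at 15 and 16 genes in the MEF control and KO and at 18 and 19 at 72 h. Over all protein-coding genes the shares were 69.7%, 69.8%, 70.3% and 69.9%. In the control 5 promoters gained a peak, against 4.28% of all protein-coding genes, and those of Esrrb and Dppa5a lost it. Among the gained, Zfp42, a marker of naive cells, reached a fold of 8.76, above all 6 promoters described here. The others were Gdf3 at 3.54, Nr0b1 at 3.01, Tet1 at 2.91 and Lefty1 at 2.47. The Esrrb peak was weak (1.92 in MEF control) and went the other way in the KO, with none in MEFs and 1.955 at 72 h. Listed intervals, all more open in KO, lay near 5 of the 26 genes in MEFs and 7 at 72 h, with 9 listed intervals in the latter. The log2 fold changes at 72 h were largest at Tdgf1 (2.29 ± 0.27, SE), Fbxo15 (2.14 ± 0.25) and Gdf3 (2.13 ± 0.25), above the 1.54 of Pou5f1. Control means there were low, at 10.9, 13.3 and 13.7 normalised counts, against 77.1 at that Pou5f1 interval. Changes were smaller at a second Tdgf1 interval (0.60) and at Dnmt3l, Tet1, Trim71 and Klf2 (0.45 to 0.71). In MEFs they ran from 0.66 at Esrrb to 2.13 at Dnmt3l, and the edgeR adjusted p over both contexts ran up to 0.0119, at Fbxo15 in MEFs.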

How the data were processed

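Per the methods and the submitters' processing notes, reads were trimmed with Cutadapt, aligned to GRCm38.p6 with BWA and filtered with Picard, SAMtools and BEDtools. With MACS2, the authors called broad peaks for each group from its merged libraries (FDR under 0.1) and deposited for each peak its fold enrichment, a ratio over background, and its −log10 q. They counted reads over the peak union with Rsubread and deposited raw counts and the normalised signal, counts divided by DESeq2 size factors, for the intervals under an FDR of 0.05. The deposited fold changes, their errors and p-values were not used. The union was rebuilt from the 4 lists and held all listed intervals. Listed counts were refitted with edgeR 4.0.16 in R 4.3.3 (quasi-likelihood test, two-sided, recovered size factors, Benjamini-Hochberg over 273256 tests), checked on simulated data. Alternatives were other scalings, DESeq2, a count filter, a replicate block, left-out libraries, a stricter threshold, and other peak, overlap, window and promoter limits.

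Named intervals were those at a gene's promoter, those listed and the strongest outside promoters in each group, and the others were added so that all 49 are described. Members, lists and words (the B1 words come from no repeat database) were chosen with earlier results of these data known. No library was a copy of another: between replicates, chi-square divided by its degrees of freedom was 1.13 to 1.69.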

Additional observations from a re-analysis of the deposited data

How the results depend on the processing

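The 3 listed changes kept their direction and stayed under an adjusted p of 0.05 in every edgeR fit that left out a library, with DESeq2, with the count filter and at the stricter threshold. Left-out libraries gave log2 changes of 1.43 to 1.70 and 0.76 to 0.89 for the far and near Pou5f1 intervals and 0.60 to 0.69 for Sall4, while calls numbered 430 to 460 for MEF (478 with all) and 1546 to 1580 for reprogramming (1608 with all). With TMM factors of the list itself, the near Pou5f1 interval and Sall4 turned to −0.143 and −0.34, and calls fell to 95 in MEF and 473 in reprogramming. That scaling centres a list in which nearly all intervals rose. Without scaling, calls were 225 and 331, and the same 2 intervals, at 0.701 and 0.512, no longer passed (adjusted p = 1, edgeR). A replicate block gave 478 and 1608 calls and 1.52, 0.825 and 0.633 for the 3 intervals. Same-numbered libraries correlated by 0.042 to 0.217 in MEF and 0.034 to 0.096 in reprogramming, so the numbers were not taken as pairs, although in reprogramming every library correlated best with its own number.

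Counts of intervals moved with the window by construction. Of the 31 intervals within 10 kb, 8 (25.8%) gained and 4 (12.9%) lost a peak in the control, against 33.9% and 32.4% of all intervals, and 10 (32.3%) and 4 (12.9%) in the KO, against 32.1% and 31.7%. In the 72 h KO 27 had a peak. Of the 104 within 50 kb, 25 (24.0%) gained and 19 (18.3%) lost one in the control and 32 (30.8%) and 22 (21.2%) in the KO, and 71, 70, 77 and 80 had a peak in the 4 groups. With peaks required to cover 50% of an interval, 11 of 49 (22.4%) were lost in the control, against 36.8% of all. By percentile among promoters, 4 of 6 genes were higher at 72 h in the KO, against 37.9% of all genes, and within 500 bases of the 5′ end 3 of 6 had a higher fold in the control, against 16.7%. Listed intervals for reprogramming numbered 3 within 20 and 50 kb and 2 within 10 kb, which leaves out the far Pou5f1 interval, and 0 in MEF in each of these windows. The set without intervals over coding exons of Pou5f1 and Sox2, chosen after seeing the data, had 15 gained intervals in the control by construction and 18 in the KO. Merged peak lists and tables of listed intervals alone limit what can be tested: changes at the other 46 intervals have no error here.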
